A study of Rattus norvegicus with 6 samples.

Results

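Lung gene expression was compared between rats that had inhaled ultrafine nickel oxide (NiO) and rats that had breathed clean air, both 1 month after exposure ended. The comparison took every scanner file of the NiO and the clean-air groups at 1 month, which is 2 of the 6 samples and 8 of the 23 arrays, 4 per group. Animals in both groups were male Wistar rats, an outbred strain, 9 weeks old at the start. They were kept in a whole-body chamber for 6 hours a day on 5 days a week over 4 weeks, with NiO aerosol, which the study used as its positive control, or with clean air, and lungs were taken 33 days later. No animal carried a genetic alteration, and lungs were perfused with saline before RNA was drawn from the right lung. Arrays of C60 fullerene rats at 1 month (4) and of clean-air rats 3 days after exposure (3) were used as well. They served to see whether the 1-month control slide stood apart, and to pick part of the genes named below. C60 arrays also gave a second reference for NiO. C60 is a carbon particle given on the same schedule, so its lungs were exposed lungs and not a further clean-air group. 1 array is taken as 1 rat because the labels give an n of 4 with 4 files, and the p-values rest on the spread among them.

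Poorly soluble particles that reach the alveoli are taken up by alveolar macrophages, which carry them into lysosomes, acidic organelles filled with cathepsins and other hydrolases. Macrophages loaded with particles, surfactant or cell debris are known to raise a set of genes for lipid handling, lysosomes and matrix breakdown, among them Trem2, Gpnmb, Spp1 and Mmp12. Nickel compounds are also known to call up the haem oxygenase and metallothionein genes, and epithelial type II cells, which make surfactant, respond to particles alongside the macrophages. In whole lung, more cells of a type and more RNA per cell cannot be told apart, nor can fewer cells and less RNA per cell.

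Arrays of the NiO group were alike, with correlations across genes of 0.991 to 0.996, while those of the control group ranged from 0.963 to 0.991. Levels are given as log2 of the scanner's processed signal, set against the 75th percentile of the same array, so that 0 is that percentile. The control slide at 1 month differed from the NiO and C60 slides of that time in 3 ways. It had more spots well above background, 71.3 to 78.3 percent on its 4 arrays against 67.5 to 69.1 percent on NiO arrays and 68.2 to 70.3 percent on C60 arrays. Spike-in controls sat at 1.98, 1.86, 3.12 and 2.68 on control arrays 1 to 4, against 2.07 to 2.13 on NiO and 2.28 to 2.30 on C60 arrays. Control arrays 1 and 2 thus lay below the NiO and C60 arrays, and control arrays 3 and 4 above them. Levels on control arrays also moved with the base composition of the probe. Among features with a mean level above 0, the median difference between NiO and control climbed from -0.33 for probes with at most 30 percent G+C to 0.24 for probes with 50 to 55 percent, and the same medians for NiO against C60 lay between -0.01 and 0.06. The share called higher climbed with it, from 0.712 to 30.5 percent. The 3-day clean-air slide, which differs in time and in scan day, stood apart as well and in other directions. It had 63.5 to 66.0 percent of spots above background, spike-in controls at 1.46 to 1.83, and, among the same brighter features, array deviations from -0.40 at the lowest G+C to 0.11 at the highest. Its mean lay at least 1 log2 unit below the means of both the control and the C60 slide of 1 month for 1129 features (4.55 percent) and above both for 529 (2.13 percent). The 1-month control slide lay that far above the C60 and 3-day control slides for 1115 features (4.49 percent) and below both for 99 (0.399 percent). The C60 slide stood apart too, that far below both control slides for 636 features (2.56 percent) and above both for 26 (0.105 percent). Of those 636, 524 were called lower in NiO lungs than in control. Every slide held 1 group, and what belongs to the slide and what to the exposure cannot be told apart. Most genes below are therefore given beside their difference from C60, which uses the same 4 NiO arrays and another reference slide. Most genes shown array by array are also given after G+C and signal centring, a correction chosen after seeing the data, and for the others it is named where it ended the call. That correction removed from every array its median deviation in each bin of probe G+C and mean signal. How far these features of the control slide entered any single result was not tested beyond those values.

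**Figure D1:**
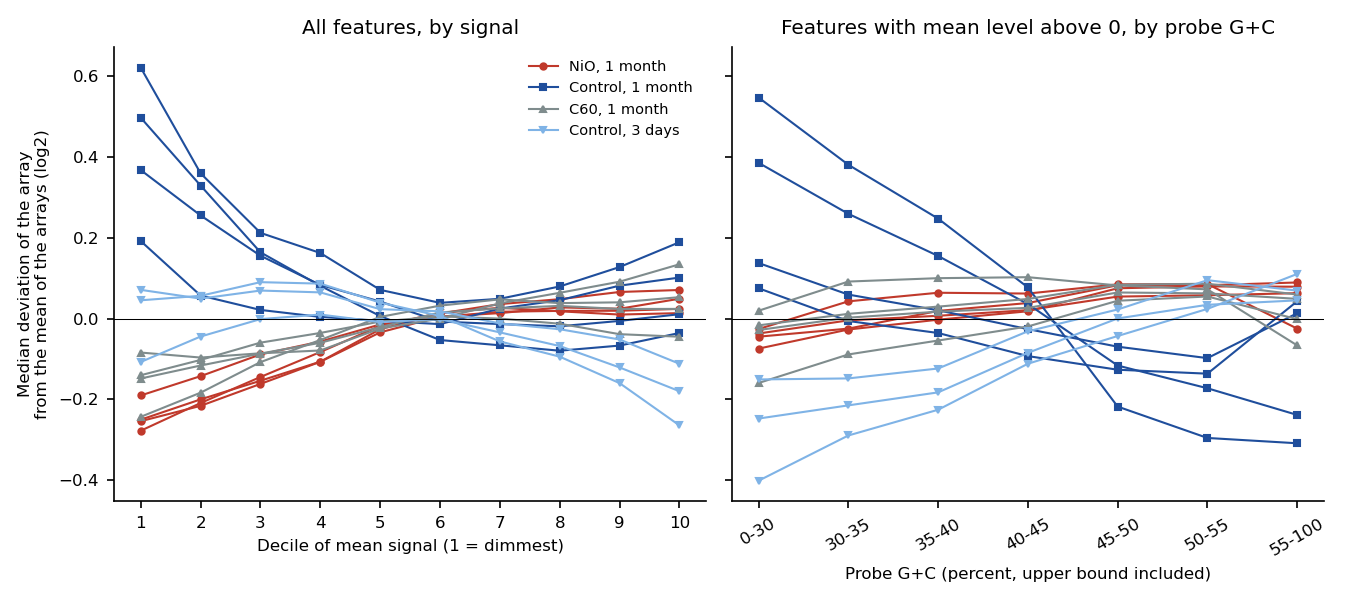
Median deviation of each array from the mean over the arrays (log2, vertical axis) in 10 equal bins of mean signal (left) and in 7 bins of probe G+C among features with a mean level above 0 (right), 1 line per array, coloured by group. Control arrays at 1 month lie highest among dim features, and control arrays 1 and 2 deviate by 0.39 and 0.55 at the lowest G+C and fall below the other groups above 45 percent, while the lines of NiO and C60 arrays run together.

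Of 24813 features tested with limma, 7308 (29.5 percent) were called at a Benjamini-Hochberg adjusted p under 0.05, of which 2805 (11.3 percent) were higher and 4503 (18.1 percent) lower in NiO lungs. The shares of 11.3 and 18.1 percent are the background for every count against control below. By at least 1 log2 unit, 323 (1.3 percent) were higher and 1999 (8.06 percent) lower. The median difference over all features was -0.12. Quantile normalization turned the split to 3773 (15.2 percent) higher and 2310 (9.31 percent) lower, and G+C and signal centring to 3274 (13.2 percent) higher and 3027 (12.2 percent) lower. Leaving out NiO array 2 cut the calls to 2596, array 3 to 3210, array 1 to 3735 and array 4 to 4704. Features higher by at least 1 log2 unit numbered 174 without control array 2, 496 without control array 3, and 209 and 211 without NiO arrays 2 and 3, and those lower by that much 1259, 1009 and 1168 without NiO arrays 1, 2 and 3. The NiO arrays lay wholly above the control arrays for 3826 features (15.4 percent) and wholly below for 5517 (22.2 percent). Against C60, 291 features (1.17 percent) were called higher and 173 (0.697 percent) lower with the same test, which is the background for every count against C60 below. Features lower than control by 1 log2 unit or more had a median difference of -1.47 from control and -0.10 from C60, and features higher by that much 1.18 and 0.44. Both sets were chosen by their difference from control, so a smaller difference from another reference follows in part from the choice.

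**Figure D2:**
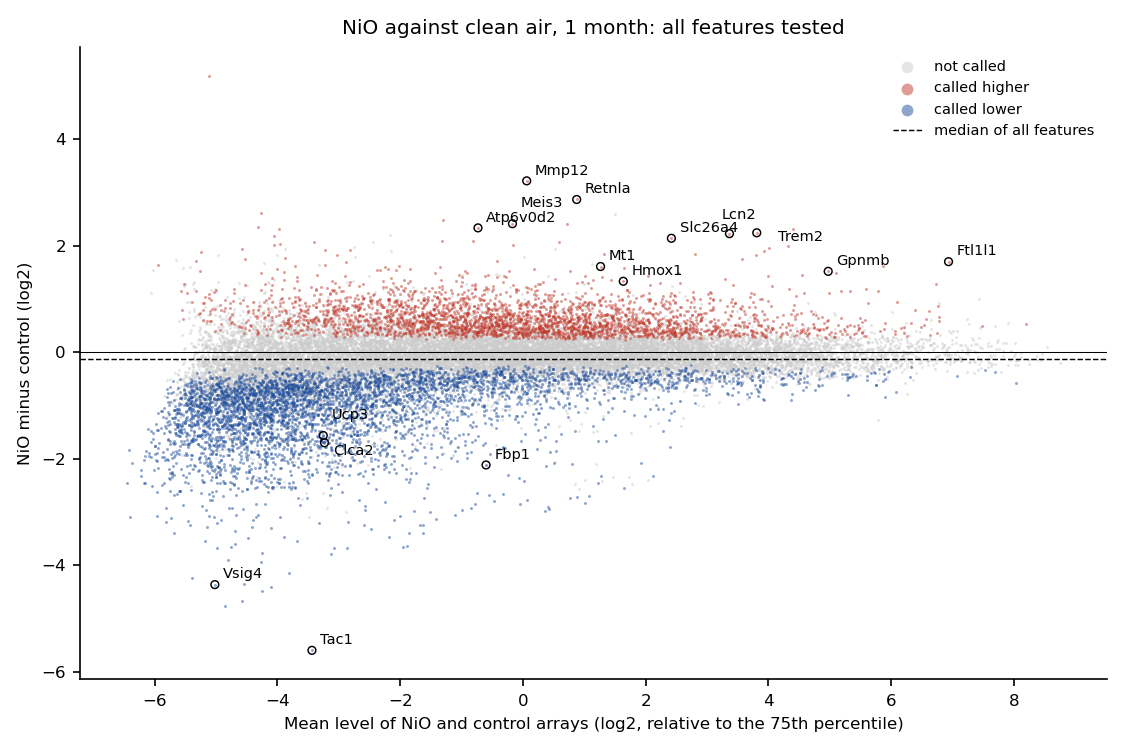
Each point is 1 feature, with its mean level over the 8 arrays on the horizontal axis and NiO minus control on the vertical axis, both in log2. Features called higher are red and lower blue at adjusted p under 0.05, the dashed line marks the median of -0.12, and most blue points lie at the dim left side while the circled genes are those described in the text.

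Genes of lipid-loaded macrophages gave the highest median of the 46 lists. The lists and their members were chosen with earlier results of these data known, so this rank is not separate support. Of 20 measured members of that list, 10 rose, 1 fell and 9 did not pass the test, with a median of 0.75 against -0.12 over all features, and 8 were also called higher than C60, where the median was 0.74. The fall was in Cd36, a fatty acid scavenger receptor. After centring the counts were 10 higher and 1 lower, and with 1 array left out between 8 and 10 were higher. Mmp12, macrophage elastase, had the largest rise of any gene named here. It read 1.20, 1.10, 4.24 and 0.15 on NiO arrays 1 to 4 and -1.51, -1.19, -1.76 and -1.72 on control arrays 1 to 4. Every NiO array lay above every control array, with NiO array 3 far above the rest. The difference was 3.22 ± 0.77 (SE, 4 arrays per group, limma, adjusted p 0.0208), 3.37 against C60 (adjusted p 0.0696) and 3.16 after centring (adjusted p 0.024). Trem2, a lipid-sensing receptor of macrophages, followed. NiO arrays 1 to 4 read 5.00, 4.68, 5.64 and 4.42, and control arrays 1 to 4 read 2.92, 1.97, 2.90 and 2.98. Its groups were also separate, and its C60 levels of 2.28, 1.10, 2.56 and 2.14 lay among or below the control levels. Trem2 rose by 2.24 ± 0.31 on the log2 scale (SE, limma, adjusted p 0.00553), 2.91 against C60 (adjusted p 0.0144) and 2.04 after centring (adjusted p 0.00546).

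Gpnmb, a lysosomal membrane glycoprotein of loaded macrophages, rose from 4.36, 3.92, 4.20 and 4.38 on control arrays 1 to 4 to 5.44, 5.33, 6.52 and 5.65 on NiO arrays 1 to 4. This gave 1.52 ± 0.26 for NiO minus control (SE, limma, adjusted p 0.00919), 1.36 against C60 (adjusted p 0.0391) and 1.62 after centring (adjusted p 0.00901). Abcg1, which exports cholesterol, rose from 4.83, 4.89, 4.59 and 4.73 to 5.75, 5.86, 6.18 and 5.80. For Abcg1 the limma difference was 1.14 ± 0.12 (SE, adjusted p 0.00268), 1.09 against C60 (adjusted p 0.00832) and 1.24 after centring (adjusted p 0.00175). In both genes the groups did not overlap, and C60 arrays sat near control levels. Lgals3, the lectin galectin 3, rose by 0.88 (adjusted p 0.00712) and lay 1.07 above C60 (adjusted p 0.0103). Chi3l1, a chitinase-like protein, rose by 1.56 (adjusted p 0.0118) and lay 1.30 above C60 (adjusted p 0.0442). Spp1, osteopontin, was uneven: NiO arrays read 2.22, 1.73, 2.55 and 0.01, control arrays -1.05, 0.79, -0.64 and -0.86. NiO array 4 lay below control array 2, so its groups overlapped although the rise of 2.07 passed the test (adjusted p 0.0367). Cd63, a tetraspanin of lysosomes, differed by 0.36 without passing (adjusted p 0.0625). Spp1 lost its call without NiO array 1, 2 or 3, or control array 1, 3 or 4 (highest adjusted p 0.0935).

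**Figure D3:**
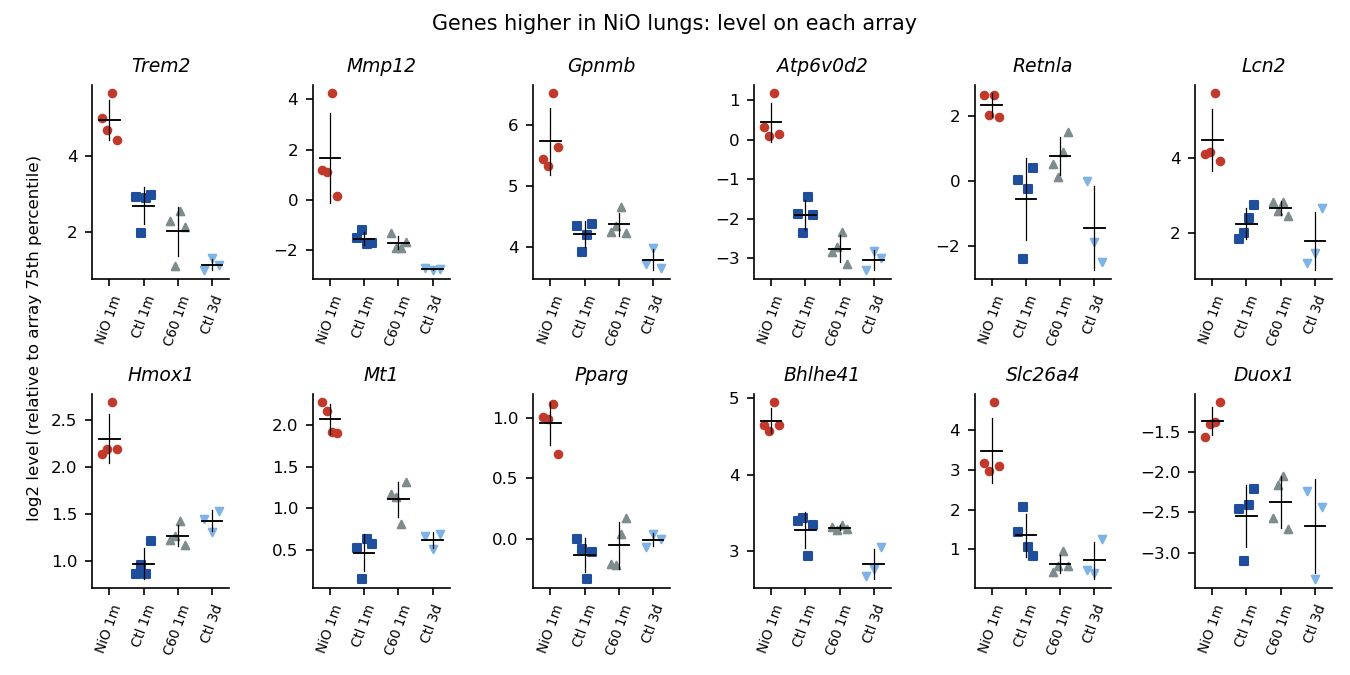
Levels on every array (log2 relative to the array's 75th percentile) for 12 genes that rose, by group: NiO, control and C60 at 1 month and control at 3 days. Points are single arrays, horizontal bars group means and vertical bars 1 SD. The NiO arrays lie above all other arrays in every panel shown, with array 3 highest for Mmp12, Lcn2 and Slc26a4. Part of the naming rule took genes for such a separation.

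The proton pump that acidifies lysosomes was led by a single subunit. Atp6v0d2, the d2 subunit known from osteoclasts and alveolar macrophages, read 0.31, 0.10, 1.17 and 0.16 on NiO arrays 1 to 4, -1.88, -2.35, -1.44 and -1.92 on control arrays and -2.83, -2.71, -2.33 and -3.15 on C60 arrays. All 4 NiO arrays stood clear of both other slides. Atp6v0d2 thus differed by 2.33 ± 0.28 (SE, 4 arrays per group, limma, adjusted p 0.00343), 3.19 against C60 (adjusted p 0.00475) and 2.43 after centring (adjusted p 0.00397). Of 16 measured pump genes, 6 rose and 0 fell with a median of 0.20, and 2 were called higher than C60, Atp6v0d2 and Atp6v1b2. Atp6v1b2, a subunit of the pump's catalytic head, rose by 0.94 (adjusted p 0.006) and lay 0.66 above C60 (adjusted p 0.0446). The membrane subunits Atp6v0c and Atp6v0d1 rose by 0.82 and 0.59 against control (adjusted p 0.0188 and 0.0173), but lay only 0.19 and 0.15 above C60 (adjusted p 0.282 and 0.331). Atp6v0c and Atp6v0d1 lost their calls without NiO array 2 or 3 (highest adjusted p 0.0556 and 0.0535).

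More lysosomal enzymes were called against control than against C60. Of 24 measured cathepsins, hydrolases and lysosomal membrane proteins, 13 rose and 1, Ctsl, fell, with a median of 0.47; centring left 12 higher, and between 7 and 12 were higher with 1 array left out. Against C60 1 was called higher, Ctsd. Ctsd, the aspartic protease cathepsin D, read 7.60, 7.77, 7.98 and 7.60 on NiO arrays, 7.40, 7.29, 7.09 and 7.18 on control arrays and 7.12, 7.15, 7.11 and 7.13 on C60 arrays. Its NiO arrays lay above all others in a narrow band. The difference was 0.50 ± 0.12 (SE, 4 arrays per group, limma, adjusted p 0.0212), 0.61 against C60 (adjusted p 0.0233) and 0.48 after centring (adjusted p 0.0191). Ctsz, a carboxypeptidase of the lysosome, rose by 1.42 (adjusted p 0.0138), with 0.85 against C60 (adjusted p 0.0616). Lgmn, the asparaginyl protease legumain, rose by 0.98 (adjusted p 0.0134), with 0.57 against C60 (adjusted p 0.121). Hexa, which degrades gangliosides, rose by 0.94 and Glb1, a galactosidase, by 0.75 (adjusted p 0.0301 and 0.0145), beside 0.41 and 0.25 against C60. Lamp1, the main membrane glycoprotein of lysosomes, rose by 0.72 (adjusted p 0.0111) and Pla2g15, the lysosomal phospholipase A2, by 1.71 (adjusted p 0.00264). Against C60 these were 0.21 and 0.82 (adjusted p 0.259 and 0.0755). Ctsk, the collagen-degrading cathepsin K, differed by -0.17 (adjusted p 0.493). Ctsd lost its call without NiO array 2 or 3 (highest adjusted p 0.064). Hexa lost its call without NiO array 1, 2 or 3, or control array 1 (highest adjusted p 0.0798).

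Many lysosomal genes are known to share a promoter element bound by TFEB and related factors, so the 250 bases before the transcription start were searched, from RefSeq promoters of assembly GRCr8. The letters CACGTGAC, on either strand, stood in 489 of 27457 promoters (1.78 percent), in 3 of 19 matched promoters of the cathepsin and hydrolase list (15.8 percent: Lamp1, Ctsd and Glb1) and in 1 of 13 of the pump list (7.69 percent: Atp6v0d1). A match is a description of letters and not a binding site. The promoters of Lamp1, with 4 matches 38 to 167 bases before the start, and of Ctsd, with 2 matches, are shown because they hold the most matches; capitals mark the matches and both run 5′ to 3′ on the gene's strand.
Lamp1, chr16:83075064-83075313, minus strand: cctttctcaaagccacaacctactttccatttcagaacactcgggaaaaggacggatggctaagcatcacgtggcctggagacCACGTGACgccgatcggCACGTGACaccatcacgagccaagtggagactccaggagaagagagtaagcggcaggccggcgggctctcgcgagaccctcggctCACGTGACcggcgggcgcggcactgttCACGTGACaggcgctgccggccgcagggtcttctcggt
Ctsd, chr1:206968822-206969071, minus strand: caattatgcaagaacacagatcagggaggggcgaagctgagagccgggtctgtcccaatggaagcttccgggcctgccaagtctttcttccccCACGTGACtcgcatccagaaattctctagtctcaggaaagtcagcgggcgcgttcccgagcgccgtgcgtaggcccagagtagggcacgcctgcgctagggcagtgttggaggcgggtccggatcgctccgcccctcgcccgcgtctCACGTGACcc

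Of 9 measured genes of alternative activation, the macrophage state driven by interleukins 4 and 13, 4 rose and 1 fell (median 0.33), and 3 were called higher than C60. Retnla, a small secreted protein of that state, read 2.63, 2.03, 2.63 and 1.95 on NiO arrays 1 to 4 and 0.04, -2.41, -0.24 and 0.39 on control arrays. NiO arrays lay in a close band above all control arrays, while control array 2 lay far below the other controls. Retnla rose by 2.87 ± 0.56 on the log2 scale (SE, limma, adjusted p 0.0132), 1.56 against C60 (adjusted p 0.044) and 2.91 after centring (adjusted p 0.0149). Arg1, arginase 1, read 3.73, 3.60, 4.58 and 3.70 on NiO arrays and 2.99, 3.16, 2.52 and 2.94 on control arrays, with array 3 above the other NiO arrays and no overlap. This gave 1.00 ± 0.24 for NiO minus control (SE, limma, adjusted p 0.0204), 1.14 against C60 (adjusted p 0.0363) and 0.98 after centring (adjusted p 0.0189). Mrc1, the mannose receptor, rose by 0.33 (adjusted p 0.0324) and lay 0.46 above C60 (adjusted p 0.0208). Clec10a, a galactose lectin, fell by 0.43 on the log2 scale (adjusted p 0.0386), beside -0.14 against C60 (adjusted p 0.571). Alox15, another member, was not called, at -0.99 against control and -2.10 against C60 (limma, adjusted p 0.195 and 0.0539). NiO arrays for Alox15 overlapped the control arrays but lay below every C60 and 3-day clean-air array. Mrc1 lost its call without any single NiO array or control array 1 or 3 (highest adjusted p 0.0876). Clec10a lost its call without any single NiO array or control array 1, 2 or 4 (highest adjusted p 0.101). After centring Clec10a no longer passed (adjusted p 0.0503).

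Receptors of resident macrophages went both ways. Of 10 measured, 3 rose (Axl, Mertk and Fcna) and 1 fell, with a median of 0.36. The fall was in Vsig4, a complement receptor of tissue-resident macrophages, which read -6.98, -8.01, -5.87 and -7.93 on NiO arrays 1 to 4 and was well above background on none of them. Control arrays read -3.03, -2.65, -3.23 and -2.43 and C60 arrays -2.59, -2.87, -2.84 and -2.35, all above background, so NiO lungs lay at least 7.32-fold below control. This bound sets the control mean against the lowest signal that counted as above background, or the probe's own value where that was higher, and holds for each later "at least". The limma adjusted p for Vsig4 was 0.00264 against control and 0.00832 against C60. Vsig4 passed the background filter, which asked for every array of at least 1 group, through the control arrays alone. Axl, a receptor for dying cells, rose by 0.56 and lay 0.42 above C60 (adjusted p 0.00618 and 0.0427). Another probe of Axl differed by 0.19 from control. Mertk, of the same receptor family, rose by 0.45 against control (adjusted p 0.0347) and differed by 0.05 from C60 (adjusted p 0.892), and Fcna, a ficolin, rose by 0.67 (adjusted p 0.0328). Mertk lost its call without any single NiO array or control array 1, 3 or 4 (highest adjusted p 0.0857). Fcna lost its call without NiO array 1, 2 or 3 (highest adjusted p 0.0878). After centring Fcna no longer passed (adjusted p 0.0561). For Axl and Mertk the 3-day clean-air arrays, at 0.55 to 0.83 and -1.45 to -1.17, lay above every NiO array.

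Alveolar macrophage markers rose in part: of 12 measured, 6 rose and 0 fell (median 0.37). Among the 6, Abcg1, Cd68 and Mrc1 were already counted in lists above. The log2 of the summed signal of the 12 markers was 7.30 to 7.61 on NiO arrays, 6.76 to 7.08 on control and 6.96 to 7.04 on C60 arrays, so NiO arrays lay above both. The part of these markers in the rises above was not tested. Pparg, the nuclear receptor needed for alveolar macrophage maturation, read 1.01, 0.98, 1.11 and 0.70 on NiO arrays and 0.00, -0.08, -0.33 and -0.10 on control arrays, with no overlap. For Pparg the limma difference was 1.08 ± 0.12 (SE, adjusted p 0.00294), 1.00 against C60 (adjusted p 0.0144) and 1.12 after centring (adjusted p 0.00177). Bhlhe41, a repressor needed for alveolar macrophage identity, was counted in the clock list and not among these markers. It read 4.66, 4.58, 4.95 and 4.65 on NiO arrays, 3.40, 3.44, 2.93 and 3.34 on control arrays and 3.32, 3.27, 3.35 and 3.29 on C60 arrays, again clear of both. Bhlhe41 thus differed by 1.43 ± 0.14 (SE, 4 arrays per group, limma, adjusted p 0.0022), 1.40 against C60 (adjusted p 0.00195) and 1.41 after centring (adjusted p 0.00175). Csf1r, the receptor for macrophage colony-stimulating factor, rose by 0.91 on the brightest probe (adjusted p 0.00735) and turned to -0.63 when the median over its probes was taken, so its direction is unsettled. Cd68, a lysosomal glycoprotein of macrophages, rose by 0.99 (adjusted p 0.0159) with 0.81 against C60 (adjusted p 0.0851). For Csf1r the 3-day clean-air arrays, at 1.95 to 2.11, lay above every NiO array.

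**Figure D4:**
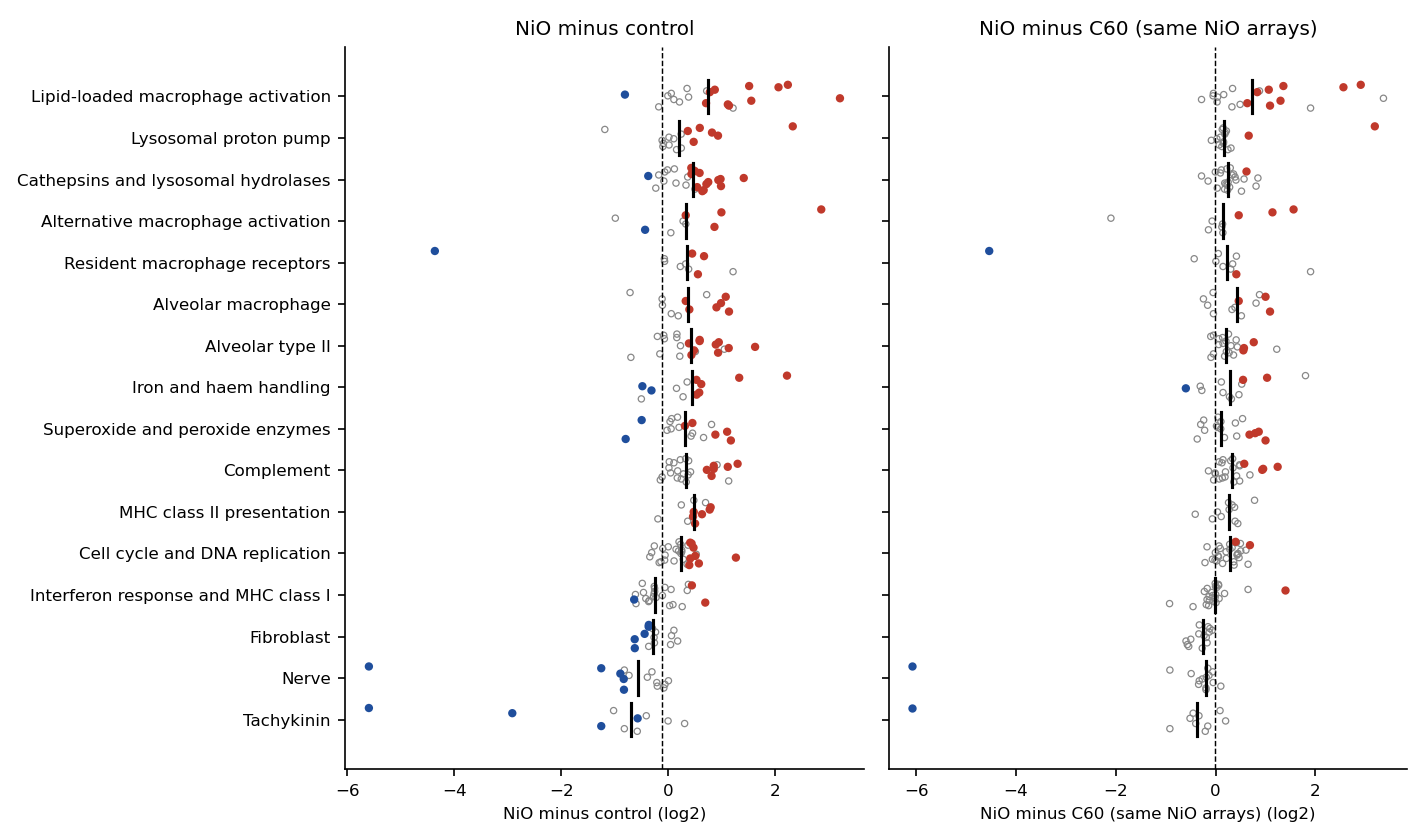
Members of 16 gene lists by their difference from control (left) and from C60 (right), in log2; both panels use the same NiO arrays. Filled points passed adjusted p under 0.05 (red higher, blue lower) and open points did not. Black bars are list medians and dashed lines the medians of all features, -0.12 and -0.01. The lipid-loaded macrophage list lies farthest right in both, among lists chosen with earlier results of these data known.

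Chemokines and their receptors went both ways. Of 15 measured CXC chemokines and receptors 3 rose and 3 fell (median 0.09), and of 23 CC members 2 rose and 4 fell (median -0.02). Cxcl3 rose by 0.66 and Cxcl17, a mucosal chemokine, by 1.05 (adjusted p 0.0138 and 0.0162), with 0.40 and 0.42 against C60 (adjusted p 0.126 and 0.0702). A second probe of Cxcl17 differed by -0.10. Cxcl1 and Cxcl2, the main neutrophil attractants of the rat, differed by 0.11 and 0.09 (adjusted p 0.8 and 0.863). Of the neutrophil receptors, Cxcr1 rose by 0.94 and lay 1.04 above C60 (adjusted p 0.0138 and 0.0339), while Cxcr2 fell by 1.12 on the log2 scale against control (adjusted p 0.00898) and differed by -0.34 from C60 (adjusted p 0.576). Cxcl9, an interferon-induced T cell attractant, read -4.36, -4.23, -3.93 and -3.93 on NiO arrays, -3.01, -3.09, -2.41 and -2.52 on control arrays and -2.82, -3.22, -2.87 and -2.71 on C60 arrays. NiO arrays lay below every array of both. The difference was -1.35 ± 0.19 (SE, 4 arrays per group, limma, adjusted p 0.00544), -1.21 against C60 (adjusted p 0.0135) and -1.18 after centring (adjusted p 0.00674). After centring Cxcr2 no longer passed (adjusted p 0.0906).

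Ccl6, a macrophage chemokine, rose by 0.94 and its receptor Ccr1 by 0.84 (adjusted p 0.0138 and 0.00412), and both lay above C60, by 0.71 and 0.69 (adjusted p 0.0446 and 0.0299). Ccl2 and Ccl7, monocyte attractants, differed by 0.48 and 0.67 without passing (adjusted p 0.264 and 0.228). In both, NiO array 3 stood above every other array, at 1.24 and -1.22. Ccl11, the eosinophil attractant eotaxin, fell by 1.55 on the log2 scale against control (adjusted p 0.0369), where its 4 arrays ranged from 1.11 to 3.50, and differed by -0.51 from C60 (adjusted p 0.451). The other CC members that fell were Ccl27, Ccl28 and Ccr9. Of 17 measured cytokines and receptors, 5 rose (Il1rn, Il18, Tgfb1, Csf2 and Osm) and 3 fell (Il33, Csf1 and Ifng), with a median of 0.15. Il18, an inflammasome cytokine, rose by 0.60 and lay 0.64 above C60 (adjusted p 0.0181 and 0.0491), and it was the 1 member called against C60. Tgfb1 rose by 0.74 and Csf2, the growth factor that maintains alveolar macrophages, by 0.53 (adjusted p 0.0134 and 0.0276), but they differed from C60 by 0.19 and 0.11. Il1b differed by 0.04 (adjusted p 0.852), and another of its probes by -0.26. Ccl11 lost its call without any single NiO array or control array 1 or 4 (highest adjusted p 0.0905). Csf2 lost its call without any single NiO array or control array 1 (highest adjusted p 0.0729). After centring Csf1 no longer passed (adjusted p 0.055).

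Among 14 measured neutrophil markers Cd177 rose and Cxcr2 fell. Cd177, a surface protein of neutrophils, read 1.52, 1.57, 3.87 and 0.77 on NiO arrays and -0.40, -0.80, -0.58 and -0.15 on control arrays. NiO arrays lay above all control arrays, array 3 by the widest margin. Cd177 rose by 2.41 ± 0.59 on the log2 scale (SE, limma, adjusted p 0.0221), 2.11 against C60 (adjusted p 0.117) and 2.15 after centring (adjusted p 0.0328). The granule proteins S100a8 and S100a9 differed by 0.31 and 0.25 (adjusted p 0.495 and 0.576), with a dimmer probe of S100a8 at -1.17, and the summed neutrophil signal was 5.32 to 6.04 on NiO arrays against 4.68 to 5.37 on control arrays. Of 21 T and NK cell markers 0 rose and 1, Zap70, fell. Of 10 B and plasma cell markers Jchain and Tnfrsf17 rose. Jchain, the joining chain of polymeric antibodies, rose by 1.41 (adjusted p 0.0103) and differed from C60 by 0.66 (adjusted p 0.127). Of 11 mast cell markers Fcer1a rose while Tpsab1 and Kit fell, with another probe of Kit at a difference of 0.22. Tpsab1, mast cell tryptase, fell by 0.86 on the log2 scale (adjusted p 0.0204) and differed from C60 by -0.15. Cd177 lost its call without NiO array 2 (highest adjusted p 0.0529). Tpsab1 lost its call without NiO array 1, 2 or 3 (highest adjusted p 0.0565).

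Mt1 had the largest rise of the metal list. Of 10 measured genes of metallothioneins and metal transport 3 rose and 0 fell (median 0.18). Mt1, which binds zinc and other metals, read 2.28, 2.18, 1.92 and 1.91 on NiO arrays, 0.51, 0.14, 0.63 and 0.56 on control arrays and 1.17, 1.13, 0.81 and 1.31 on C60 arrays. Its NiO arrays lay above all others, and C60 arrays lay between NiO and control. This gave 1.61 ± 0.14 for NiO minus control (SE, limma, adjusted p 0.00173), 0.97 against C60 (adjusted p 0.0174) and 1.35 after centring (adjusted p 0.00175). Slc11a1, a metal transporter of the phagosome, rose by 1.31 (adjusted p 0.00773) with 0.96 against C60 (adjusted p 0.0534), and Slc11a2 was the third riser. Another probe of Slc11a2 differed by 0.07 from control. Metal-responsive elements, written here as TGCACNC or TGCGCNC on either strand, stood in 21.2 percent of all promoters of 250 bases and in 7 of 9 matched promoters of the metal list (77.8 percent). Of the 3 risers only Mt1 had matches: Slc11a2 had 0, and Slc11a1 was not among the matched promoters. The other genes with matches were not called or, for Mt2A, not measured. The promoter of Mt1 is shown because it leads the list; it had 6 matches, in capitals, 55 to 176 bases before the start, in RefSeq assembly GRCr8.
Mt1, chr19:10832976-10833225, minus strand: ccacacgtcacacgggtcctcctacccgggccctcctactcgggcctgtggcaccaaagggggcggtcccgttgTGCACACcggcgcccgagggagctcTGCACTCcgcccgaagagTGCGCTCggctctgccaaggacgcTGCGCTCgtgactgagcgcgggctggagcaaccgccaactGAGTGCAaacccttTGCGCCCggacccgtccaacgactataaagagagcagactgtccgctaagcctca

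Of 12 measured genes of iron and haem handling, 6 rose and 2, Slc40a1 and Cp, fell (median 0.45); 2 were called higher and 1 lower than C60. Hmox1, the oxygenase that splits haem, read 2.14, 2.19, 2.69 and 2.19 on NiO arrays and 0.86, 0.95, 0.86 and 1.22 on control arrays, with array 3 highest and no overlap. For Hmox1 the limma difference was 1.33 ± 0.15 (SE, adjusted p 0.00311), 1.03 against C60 (adjusted p 0.0162) and 1.02 after centring (adjusted p 0.00571). Lcn2, lipocalin 2, which binds bacterial iron carriers, read 4.10, 4.17, 5.72 and 3.93 on NiO arrays and 1.86, 2.00, 2.40 and 2.76 on control arrays, again with array 3 far above the others. Lcn2 thus differed by 2.23 ± 0.40 (SE, 4 arrays per group, limma, adjusted p 0.0107), 1.80 against C60 (adjusted p 0.0523) and 2.02 after centring (adjusted p 0.0131). Tfrc, the transferrin receptor, rose by 0.62 on its brightest probe (adjusted p 0.0197), while another, dimmer probe differed by -0.38. Haptoglobin, Hp, rose by 0.53 (adjusted p 0.022). Tfrc lost its call without NiO array 1 (highest adjusted p 0.0511). Hp lost its call without NiO array 1 or 3 (highest adjusted p 0.0581).

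Ferritin light chain, the iron store of macrophages, was higher on every probe, but its gene copies were not separated here. The array holds probes for Ftl1 and for Ftl1l1, a copy on another chromosome, and near-identical copies can share signal. The brightest Ftl1 probe rose by 0.53 (adjusted p 0.0183) from a level of 7.93, while the other 4 probes of Ftl1, not tested singly, lay 1.40 to 1.71 higher and Ftl1l1 rose by 1.70 (adjusted p 0.00692). A pair of these Ftl1 probes covers the same stretch and differs at 4 of 60 bases, in capitals, yet read differences of 1.45 and 1.40. They are shown with the Ftl1l1 probe. Both of the pair carry the name Ftl1, so their agreement does not bear on Ftl1 against Ftl1l1. The Ftl1 probes differ from the Ftl1l1 probe at 43 to 49 of 60 bases, and signal shared between the copies was not tested. Coordinates are those of the scanner files in build rn4, where the pair spans an intron.
A_42_P541034, chr1:95929543-95929804, minus strand: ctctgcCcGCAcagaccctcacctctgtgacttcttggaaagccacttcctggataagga
A_44_P149190, chr1:95929543-95929804, minus strand: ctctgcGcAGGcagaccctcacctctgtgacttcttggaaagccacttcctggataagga
A_44_P553297, chrX:139088285-139088344, minus strand: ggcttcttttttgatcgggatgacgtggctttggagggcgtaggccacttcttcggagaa
Ftl1l1 read 7.68, 7.86, 8.22 and 7.38 on NiO arrays, 6.33, 5.39, 6.36 and 6.27 on control arrays and 6.59, 6.57, 6.64 and 6.30 on C60 arrays. NiO arrays lay above all others, and control array 2 lay below the other controls. The difference was 1.70 ± 0.26 (SE, 4 arrays per group, limma, adjusted p 0.00692), 1.26 against C60 (adjusted p 0.0174) and 1.49 after centring (adjusted p 0.0072). Ftl1 lost its call without NiO array 2 (highest adjusted p 0.0575). After centring Ftl1 no longer passed (adjusted p 0.0599).

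Oxidant defence moved in single genes. Of 24 measured Nrf2 targets 5 rose (Hmox1, Txn1, Akr1b8, Mgst1 and Prdx1) and 1, Gclm, fell, with a median of 0.07. Akr1b8, an aldo-keto reductase, read 3.41, 3.24, 3.89 and 2.54 on NiO arrays and 1.76, 1.68, 1.86 and 1.85 on control arrays, which were tightly grouped below them. Akr1b8 rose by 1.48 ± 0.25 on the log2 scale (SE, limma, adjusted p 0.00913), 1.29 against C60 (adjusted p 0.044) and 1.28 after centring (adjusted p 0.0119). Txn1, thioredoxin, rose by 0.80 (adjusted p 0.00379) with 0.42 against C60 (adjusted p 0.0561). Gclm, the modifier subunit of glutathione synthesis, fell by 2.03 on the log2 scale against control (adjusted p 0.00812) but differed by -0.07 from C60 (adjusted p 0.938), and the control slide lay at least 1 log2 unit above both the C60 and the 3-day control slides for it. Nqo1, a quinone reductase, and Gclc, the catalytic subunit of glutathione synthesis, differed by -0.26 and -0.21 (adjusted p 0.156 and 0.363). The letters TGACNNNGC of the antioxidant response element, on either strand, stood in 6 of 24 promoters of this list (25 percent) and in 10.2 percent of all promoters. These 6 were Prdx1, which rose, Gclm, which fell, and Gpx2, Gsta3, Gstp1 and Me1, which were not called. For Gclm the 3-day clean-air arrays, at -7.25 to -7.04, lay below every NiO array.

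Of 17 measured superoxide and peroxide enzymes 5 rose and 2, Sod3 and Nox4, fell (median 0.32), and 4 were higher than C60. Prdx5, a peroxiredoxin, rose from 4.41, 4.11, 4.59 and 4.63 on control arrays to 5.55, 5.49, 5.95 and 5.18 on NiO arrays without overlap. This gave 1.11 ± 0.18 for NiO minus control (SE, limma, adjusted p 0.00868), 0.87 against C60 (adjusted p 0.0309) and 1.09 after centring (adjusted p 0.0108). Cyba, the membrane subunit of the phagocyte oxidase, rose by 0.89 and lay 0.68 above C60 (adjusted p 0.0135 and 0.0387). Duox1, the peroxide-making oxidase of airway epithelium, rose by 1.18 and lay 1.00 above C60 (adjusted p 0.00866 and 0.0299). Sod2, the mitochondrial dismutase, differed by 0.07 (adjusted p 0.786).

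Of 24 measured complement genes, 6 rose (C2, C4a, C4bpa, C5, C5ar1 and Cfp) and 0 fell with limma, with a median of 0.33, and 4 were higher than C60. C4bpa, an inhibitor that binds C4b, read 4.19, 4.05, 4.65 and 4.19 on NiO arrays, 3.09, 3.44, 3.00 and 3.09 on control arrays and 3.02, 2.94, 3.06 and 3.09 on C60 arrays. NiO arrays were separate from both. For C4bpa the limma difference was 1.12 ± 0.16 (SE, adjusted p 0.00564), 1.24 against C60 (adjusted p 0.00832) and 1.10 after centring (adjusted p 0.00399). C5ar1, the receptor of the C5a fragment, rose by 0.73 and lay 0.94 above C60 (adjusted p 0.0134 and 0.0363). C2 rose by 1.30 against control (adjusted p 0.0022) and C4a by 0.86 (adjusted p 0.0136), each with a smaller difference from C60, 0.58 and 0.48 (adjusted p 0.0363 and 0.0528). C3, the hub of the cascade, differed by 0.92 and missed the threshold (adjusted p 0.0561), with NiO array 3 at 6.10 and the other NiO arrays between 4.70 and 4.81. Cfb, of the alternative pathway, differed by 0.42 (adjusted p 0.0652). For C4a the 3-day clean-air arrays, at 3.58 to 4.01, lay above every NiO array.

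Of 11 measured genes of MHC class II presentation 6 rose against control (median 0.48) and 0 against C60. RT1-DMa, which loads peptides, rose by 0.78 and RT1-Db1, a class II beta chain, by 0.80 (adjusted p 0.0159 and 0.0224), beside 0.27 and 0.38 from C60 (adjusted p 0.144 and 0.0576). A dimmer probe of RT1-Db1 differed by 0.09. Cd74, the invariant chain, rose by 0.47 and Ifi30, a lysosomal thiol reductase, by 0.51 (adjusted p 0.0329 and 0.0143), and they differed from C60 by 0.11 and 0.45. RT1-Da, a class II alpha chain, differed by 0.25 (adjusted p 0.165). Most interferon genes were not called: of 24 measured 2, Irf1 and Tap1, rose and 1, Gbp2, fell, and the median was -0.25. Irf7 and Isg15, which respond to interferon, differed by -0.26 and -0.25 (adjusted p 0.249 and 0.3), and from C60 by 0.00 and -0.17. Of 12 acute-phase genes 5 rose (Hp, Lcn2, Lbp, Fgg and Pigr) and 1, Cp, fell (median 0.41). Fgg, a fibrinogen chain, rose by 0.70 and lay 0.77 above C60 (adjusted p 0.00693 and 0.0352). RT1-Db1 lost its call without NiO array 1, 2 or 3 (highest adjusted p 0.0637). Cd74 lost its call without any single NiO array (highest adjusted p 0.0857). After centring Cd74 no longer passed (adjusted p 0.0913).

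In the epithelium, markers of type II cells, which make surfactant, were called in part. Of 21 measured 10 rose and 0 fell (median 0.44), with 10 higher and 1 lower after centring and 3 higher than C60. Their summed signal, dominated by surfactant genes, was 10.72 to 10.93 on NiO, 10.71 to 10.96 on control and 10.72 to 10.83 on C60 arrays. Lpcat1, which makes the main surfactant lipid, read 1.43, 1.68, 1.67 and 1.58 on NiO arrays, 0.79, 0.47, 0.75 and 0.55 on control arrays and 0.88, 0.86, 1.15 and 0.41 on C60 arrays, with NiO arrays above all others. Lpcat1 thus differed by 0.95 ± 0.11 (SE, 4 arrays per group, limma, adjusted p 0.00329), 0.77 against C60 (adjusted p 0.0474) and 1.10 after centring (adjusted p 0.00423). Muc1, a membrane mucin, rose by 1.14 and lay 0.57 above C60 (adjusted p 0.00446 and 0.0299). Lamp3, of lamellar bodies, rose by 0.59 (adjusted p 0.00874) with 0.41 against C60 (adjusted p 0.0674). Other probes of Lamp3 differed by 0.15 and 0.44 from control. The transcription factors Cebpa and Etv5 rose by 1.63 and 0.89 against control (adjusted p 0.0136 and 0.0159) but differed by 0.44 and 0.06 from C60 (adjusted p 0.326 and 0.891). Sftpc and Sftpd, surfactant proteins C and D, differed by -0.20 and 0.16 (adjusted p 0.164 and 0.307). A dimmer probe of Sftpc differed by -1.35 from control. Of 15 type I markers 1 rose, Ager, by 0.60 (adjusted p 0.0247), with 0.08 against C60. Ager lost its call without any single NiO array (highest adjusted p 0.0702). After centring Ager no longer passed (adjusted p 0.0641). For Ager and Cebpa the 3-day clean-air arrays, at 6.02 to 6.09 and -1.87 to -1.56, lay above every NiO array.

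Slc26a4, the anion exchanger pendrin of airway cells, had the largest rise among the epithelial markers. It read 3.18, 2.97, 4.71 and 3.10 on NiO arrays 1 to 4 and 1.44, 2.07, 1.07 and 0.83 on control arrays 1 to 4. NiO arrays lay above all control and C60 arrays, array 3 farthest. The difference was 2.14 ± 0.42 (SE, 4 arrays per group, limma, adjusted p 0.0133), 2.85 against C60 (adjusted p 0.0162) and 2.24 after centring (adjusted p 0.00973). Of 17 measured club and goblet markers 2, Slc26a4 and Cyp4b1, rose and 1, Muc4, fell. Muc4, a membrane mucin, fell by 2.02 on the log2 scale against control (adjusted p 0.0122) and differed by 1.09 from C60 (adjusted p 0.393), so the references gave opposite signs. Scgb1a1, club cell secretory protein, differed by 0.47 (adjusted p 0.0712). Clca2, a regulator of chloride conductance in epithelia, fell to a uniform level: NiO arrays read -4.01, -4.03, -4.23 and -4.05, control arrays -2.47, -2.25, -2.12 and -2.69 and C60 arrays -2.19, -2.64, -2.59 and -2.56. NiO arrays lay below all others. This gave -1.70 ± 0.14 for NiO minus control (SE, limma, adjusted p 0.00121), -1.59 against C60 (adjusted p 0.00195) and -1.49 after centring (adjusted p 0.00175). Of 15 ciliated cell markers 2 rose and 3 fell, with 1 higher and 4 lower after centring. Against C60, 0 were called higher and 2 lower. Among those that fell against control was Foxj1, the master regulator of motile cilia, by 0.44 on the log2 scale (adjusted p 0.0345) with -0.33 against C60 (adjusted p 0.138). Foxj1 lost its call without NiO array 1, 2 or 3, or control array 1, 2 or 4 (highest adjusted p 0.0915).

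Tac1, which encodes the neuropeptide precursor of substance P, lay lower on every NiO array than on any array of the other slides. NiO arrays 1 to 4 read -6.81, -6.59, -6.46 and -5.07, and control arrays 1 to 4 read -0.81, -0.44, -0.76 and -0.53. C60 arrays read -0.06, 0.32, -0.56 and -0.31 and 3-day control arrays -0.94, -0.81 and -1.06. Tac1 passed the background filter through the control arrays alone. Of the 4 NiO arrays 1 was well above background, so the size of the difference rests mostly on signals at background. This gave -5.60 ± 0.35 for NiO minus control (SE, limma, adjusted p 0.000898), -6.08 against C60 (adjusted p 0.00195) and -5.42 after centring (adjusted p 0.00136). Of 10 measured genes of tachykinins and related sensory peptides, 0 rose and 4 fell (median -0.70), and 1, Tac1, was lower than C60. Tac4, a second tachykinin gene, fell by 2.91 on the log2 scale against control (adjusted p 0.0188), where its arrays read 2.53, 3.67, 0.19 and 1.05, but differed by -0.45 from C60 (adjusted p 0.811). Calca, the gene of calcitonin and its related sensory peptide, fell by 1.25 (adjusted p 0.0257) and differed by -0.16 from C60, and its second probe differed by -0.05. Tacr2, a tachykinin receptor, fell by 0.57 (adjusted p 0.02). Of 14 nerve markers 0 rose and 5 fell (Tac1, Calca, Nefm, Gap43 and Sox10; median -0.56), and after centring 3 were lower. The summed nerve signal was 1.88 to 1.91 on NiO, 2.41 to 3.40 on control and 2.16 to 2.45 on C60 arrays, and the part of nerve RNA in the fall of Tac1 was not tested. Gap43 and Sox10, of axons and Schwann cells, differed from C60 by -0.27 and -0.19 (adjusted p 0.324 and 0.405). Tac4 lost its call without NiO array 2 (highest adjusted p 0.0548). Calca and Sox10 lost their calls without NiO array 1, 2 or 3, or control array 4 (highest adjusted p 0.0664 and 0.0725). Tacr2 lost its call without NiO array 2 or 3 (highest adjusted p 0.0631). After centring Gap43 and Tacr2 no longer passed (adjusted p 0.104 and 0.0543).

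Fbp1 and Ucp3 fell, and their NiO arrays lay below every control and C60 array. Fbp1, the fructose bisphosphatase of gluconeogenesis, read -1.75, -1.94, -1.33 and -1.61 on NiO arrays, 0.30, 0.57, 0.29 and 0.67 on control arrays and 1.45, 1.15, 0.69 and 1.42 on C60 arrays. Its second probe differed by -2.96. For Fbp1 the limma difference was -2.12 ± 0.16 (SE, adjusted p 0.00102), -2.84 against C60 (adjusted p 0.00195) and -2.16 after centring (adjusted p 0.00136). Ucp3, a mitochondrial carrier, read -4.24, -4.05, -4.54 and -3.30 on NiO arrays and -2.32, -2.74, -2.15 and -2.66 on control arrays, with no overlap. Ucp3 thus differed by -1.56 ± 0.26 (SE, 4 arrays per group, limma, adjusted p 0.00904), -1.62 against C60 (adjusted p 0.0208) and -1.39 after centring (adjusted p 0.0126). Klk6, a secreted serine protease, fell by 2.38 on the log2 scale and Csprs by 2.27 (adjusted p 0.0151 and 0.00336), and both lay below C60, by -2.32 and -2.02 (adjusted p 0.032 and 0.0174). Csprs was well above background on 1 of 4 NiO arrays. The olfactory receptor Or4f58, the sperm gene Spaca3, the neuronal gene Nrsn1 and the procollagen protease Adamts3 were well above background on no NiO array and lay at least 3.17-, 1.95-, 2.59- and 2.31-fold below control (adjusted p 0.00217, 0.00618, 0.0125 and 0.0123). These genes and Csprs passed the background filter through the control arrays alone, where they were high. Adamts3 was well above background on 1 of 4 C60 arrays and differed from C60 by -0.63 (limma, adjusted p 0.166). For Or4f58, Spaca3 and Nrsn1 the difference from C60 is not given here.

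**Figure D5:**
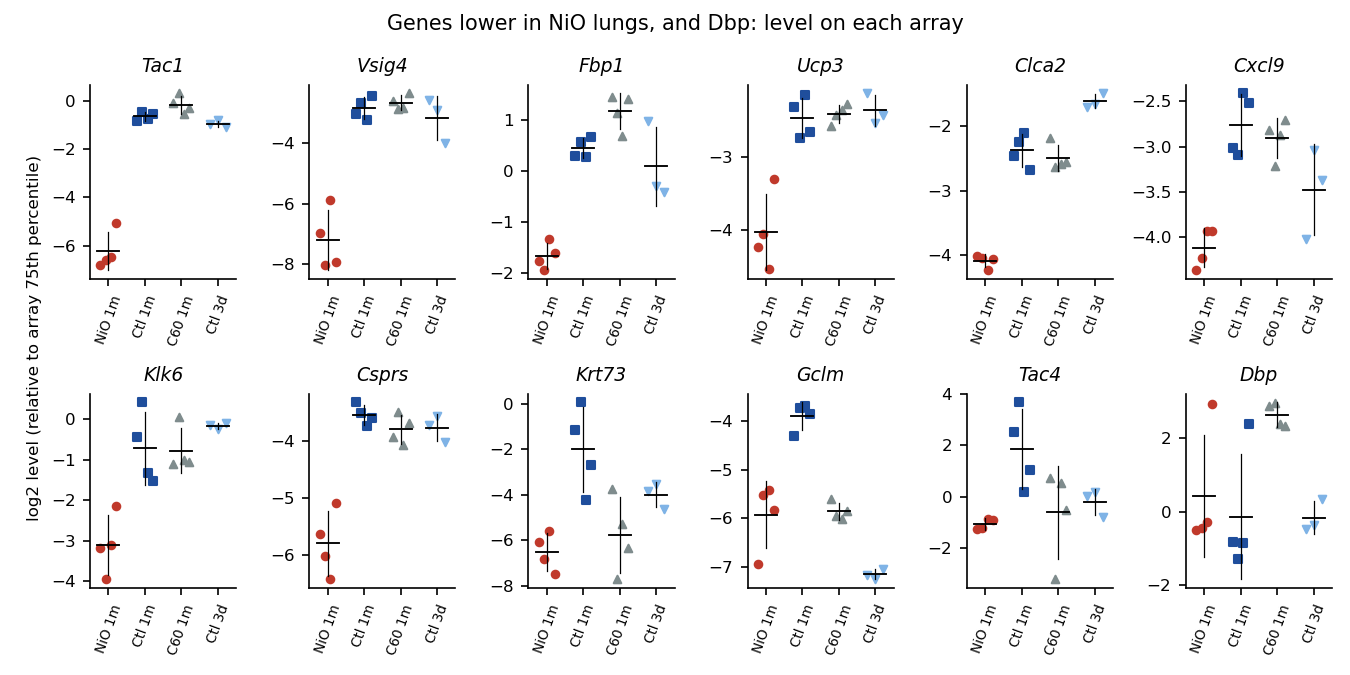
Levels on every array (log2 relative to the array's 75th percentile) for 11 genes that fell and for Dbp, by group as labelled under each panel; points are arrays, horizontal bars means and vertical bars 1 SD. For Tac1, Vsig4, Fbp1, Ucp3, Clca2, Klk6 and Csprs the NiO arrays lie below all 11 others, while for Krt73, Gclm and Tac4 the control arrays lie high and C60 arrays reach NiO levels. Part of the naming rule took genes for a separation from all other slides.

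Other rises with the same separation from C60 were in genes of mixed function. Part of the naming rule, given below, took genes for this separation, so it is not a separate result there. Trpv2, a cation channel of macrophages and sensory neurons, read 2.15, 2.37, 2.52 and 1.90 on NiO arrays, 0.33, 0.13, 0.47 and 0.67 on control arrays and 1.07, 1.06, 1.26 and 0.77 on C60 arrays, the last between the other groups. The difference was 1.83 ± 0.17 (SE, 4 arrays per group, limma, adjusted p 0.00178), 1.20 against C60 (adjusted p 0.0162) and 1.52 after centring (adjusted p 0.00175). Meis3, a homeobox factor, rose by 2.41 and lay 1.60 above C60 (adjusted p 0.00467 and 0.0263). Myo7a, an unconventional myosin, rose by 1.92 and lay 1.03 above C60 (adjusted p 0.00261 and 0.0114), with control array 2 at -4.39, below the other controls. Itih1, a heavy chain of the inter-alpha-trypsin inhibitors, rose by 2.03 and lay 2.39 above C60 (adjusted p 0.00943 and 0.0233).

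Of 16 measured metalloproteinases and inhibitors 3 rose (Mmp11, Mmp12 and Mmp14) and 0 fell (median 0.18). Mmp14, a membrane collagenase, rose by 0.39 and lay 0.42 above C60 (adjusted p 0.0406 and 0.038). Mmp7, matrilysin, differed by 1.32 and missed the threshold (adjusted p 0.145), with NiO array 3 at -1.42 and the other NiO arrays between -4.67 and -3.77. Timp1, an inhibitor of these proteases, differed by -0.02 (adjusted p 0.846). Of 24 collagens and matrix genes 4 rose (Col4a2, Col5a1, Sparc and Loxl2) and 1, Col14a1, fell, and 0 were called against C60. Col1a1 and Col3a1, the fibrillar collagens of scar, differed by -0.29 and 0.11 (adjusted p 0.0543 and 0.415), but other probes of Col1a1 differed by 0.50 and 0.19. Col4a2, of basement membrane, rose by 0.87 (adjusted p 0.0225) but differed by -0.17 from C60. Of 14 fibroblast markers 0 rose and 5 fell (median -0.28), Pdgfra by 0.36 and the growth factor Fgf7 by 0.62 on the log2 scale (adjusted p 0.0305 and 0.0151), and 0 was called lower than C60. Mmp14 and Pdgfra lost their calls without any single NiO array or control array 1 or 4 (highest adjusted p 0.104 and 0.0784). Col4a2 lost its call without NiO array 1, 2 or 4 (highest adjusted p 0.0662). Fgf7 lost its call without NiO array 2 (highest adjusted p 0.0505). After centring Mmp14 and Pdgfra no longer passed (adjusted p 0.0618 and 0.0691). For Col4a2 the 3-day clean-air arrays, at 1.08 to 1.38, lay above every NiO array.

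Of 23 endothelial markers 3 rose (Tie1, Flt4 and Esam) and 3 fell (Kdr, Flt1 and Tmem100), with another probe of Flt1 at a difference of 0.12. Kdr, the main receptor of vascular growth factor, fell by 0.57 and Tie1, an endothelial receptor, rose by 0.68 (adjusted p 0.015 and 0.0486), and they differed from C60 by -0.21 and -0.10 (adjusted p 0.174 and 0.777). Of 18 genes of coagulation and fibrinolysis 2 rose and 3 fell. Plaur, the urokinase receptor, rose by 1.15 and Serpine2, a protease inhibitor, by 1.38 (adjusted p 0.00875 and 0.0118), with 0.66 and 0.87 against C60 (adjusted p 0.0567 and 0.0539). Procr, the endothelial protein C receptor, fell by 0.55 and lay -0.56 from C60 (adjusted p 0.0111 and 0.0406). Another probe of Procr differed by -0.23 from control. F2r, a thrombin receptor, fell by 1.81 (adjusted p 0.000665) but differed by -0.30 from C60, and the control slide stood apart for it; F2rl1 was the third to fall. Of 14 smooth muscle markers 1 fell, Tpm2, by 0.44 (adjusted p 0.0323). Kdr lost its call without NiO array 2 (highest adjusted p 0.051). Tie1 lost its call without any single NiO array or control array 1 or 3 (highest adjusted p 0.108). Tpm2 lost its call without any single NiO array or control array 4 (highest adjusted p 0.0863). After centring Tie1 no longer passed (adjusted p 0.0875). For Esam and Tie1 the 3-day clean-air arrays, at 3.55 to 3.64 and 0.34 to 0.54, lay above every NiO array. For F2r the 3-day clean-air arrays, at -6.95 to -5.93, lay below every NiO array.

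Some cell cycle genes rose. Of 29 measured, 8 rose and 0 fell (median 0.24), and 2 were higher than C60. Mcm5, of the replicative helicase, rose by 1.27 and Cdk1, the mitotic kinase, by 0.48 (adjusted p 0.0151 and 0.0367), with 0.47 and 0.33 against C60 (adjusted p 0.297 and 0.244). Top2a, a topoisomerase of dividing cells, differed by 0.21 from control (adjusted p 0.228) and lay 0.40 above C60 (adjusted p 0.0342). Of 20 cholesterol genes 4 rose (Mvd, Cyp51, Nsdhl and Sc5d); Cyp51, a demethylase of sterol synthesis, rose by 1.03 (adjusted p 0.00623) with 0.37 against C60. Of 24 fatty acid genes 4 rose and 4 fell. Of 22 glycolysis and hypoxia genes 9 rose and 2, Pfkm and Car9, fell (median 0.29), and 2 were higher than C60. Aldoa, the aldolase of glycolysis, rose by 1.12 and Pkm, pyruvate kinase, by 1.00 (adjusted p 0.00952 and 0.00672), with 0.40 and 0.43 against C60. Slc2a1, the glucose transporter, rose by 0.71 and lay 0.44 above C60 (adjusted p 0.00868 and 0.0483). Cdk1 lost its call without NiO array 1, 2 or 3, or control array 2, 3 or 4 (highest adjusted p 0.0881). After centring Cdk1 no longer passed (adjusted p 0.0518).

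Of 19 genes of unfolded protein and amino acid stress 3 rose (Calr, Dnajc3 and Asns); Asns, asparagine synthetase, rose by 0.81 and lay 0.50 above C60 (adjusted p 0.00264 and 0.0208), and the chaperone Hspa5 differed by 0.18 (adjusted p 0.208). Of 25 proteasome genes 1 rose, Psma3. Of 22 immediate early genes Junb rose and Fosb and Fosl1 fell. Of 12 glucocorticoid response genes 4 rose (Zbtb16, Sgk1, Cdkn1a and Lcn2). Sgk1, a kinase of that response, rose by 0.69 and lay 0.48 above C60 (adjusted p 0.00433 and 0.0233), while Zbtb16, a zinc finger factor, rose by 2.30 against control (adjusted p 0.0223) and differed by 0.33 from C60 (adjusted p 0.772). The clock genes Dbp and Nr1d1, singled out after their values were seen, split the arrays of both groups. Dbp, a clock output factor, read -0.51, -0.44, -0.28 and 2.92 on NiO arrays 1 to 4, -0.84, -1.29, -0.85 and 2.39 on control arrays and 2.88, 2.96, 2.37 and 2.33 on C60 arrays. Array 4 of each group stood with the C60 arrays and the other 3 of each did not, and the difference of 0.57 did not pass (adjusted p 0.68). Nr1d1, a clock repressor, showed the same split and differed by 1.19 (adjusted p 0.223). Of 14 clock genes 2 rose, Bhlhe40 and Bhlhe41; Bhlhe40 rose by 0.75 (adjusted p 0.0173) and differed by 0.12 from C60. Zbtb16 lost its call without NiO array 1 or 2 (highest adjusted p 0.0589).

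Of 13 heart muscle markers 2, Ldb3 and Smpx, fell (another probe of Ldb3 differed by 0.42), and the heart genes Myh6 and Myl7 differed by -0.59 and -0.33 (adjusted p 0.0779 and 0.168); Myl7 lay -0.74 from C60 (adjusted p 0.032). The summed heart signal was 6.30 to 6.73 on NiO, 6.54 to 7.35 on control and 6.97 to 7.51 on C60 arrays. Of 10 fat cell markers 2, Adipoq and Slc36a2, fell, Adipoq by 1.35 on the log2 scale (adjusted p 0.0269) with -0.79 against C60 (adjusted p 0.28). Of 11 red cell markers 1, Car1, fell, by 1.88 (adjusted p 0.0297), and it differed by 0.40 from C60 (adjusted p 0.304). Adipoq and Car1 lost their calls without any single NiO array or control array 4 (highest adjusted p 0.0721 and 0.0756).

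For several genes with low differences by size the control arrays lay high, and the C60 arrays lay nearer to NiO. Krt73, a keratin of the hair follicle, read -6.09, -6.82, -5.57 and -7.48 on NiO arrays, -1.17, 0.06, -4.22 and -2.69 on control arrays and -3.75, -7.71, -5.30 and -6.33 on C60 arrays. Control arrays spanned more than 4 log2 units, and C60 arrays reached NiO levels. NiO lungs were well above background on none of the 4 arrays and lay at least 12.9-fold below control (adjusted p 0.0126), while the test against C60, with 2 of 4 arrays above background, was not passed (adjusted p 0.685). The olfactory receptor Or13a25, the sperm mitochondrial protein Smcp, the Golgi transport protein Golt1a and the cytochrome P450 Cyp2c65 were above background on no NiO array and lay at least 5.43-, 7.19-, 4.91- and 2.89-fold below control and were above background on 1, 1, 0 and 1 of the 4 C60 arrays. Oit3 and Psg29 fell by 3.68 and 3.48 on the log2 scale (adjusted p 0.0124 and 0.0136) and differed from C60 by -0.40 and -0.37. The bitter taste receptor Tas2r118 was well above background on no NiO and no C60 array, and lay at least 1.82-fold below control (adjusted p 0.00105). Genes above background on no NiO array passed the background filter through the control arrays alone, where they were high. Their adjusted p is therefore not separate support for the difference. Over all features lower by at least 1 log2 unit, the control slide stood at least 1 log2 unit above both the C60 and the 3-day control slides for 812 of 1999 (40.6 percent). Over all features tested that share was 4.49 percent. The 1999 were chosen for a control level above NiO, so their larger share is in part set by the choice.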

How the data were processed

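RNA from the right lung was hybridised to 1-colour Agilent whole rat genome arrays, 4 arrays per slide and 1 slide per group. Per the file headers, the authors' scanner files hold the processed signal of each spot, a linear intensity with background subtracted and spatial detrending by Feature Extraction 9.5.3.1 (protocol GE1-v5_95_Feb07, grid on build rn4), not yet scaled between arrays. The values deposited by the authors as a table hold, per probe, a linear ratio to the control of the same time. The ratio's direction and scale were read off a comparison with the scanner values (r 0.990 across features on the log2 scale); the centring stays unknown, with column medians of 1.133 for NiO and 0.997 for control and a log2 offset of 0.33.

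From the signals, log2 was taken and each array's 75th percentile subtracted. Control spots were left out. Spots flagged as outliers were left out only where the probe had another, unflagged spot on that array. With 43379 spots for 41012 probes, most probes had 1 spot, and its value was kept even if flagged. Of 41012 probes, 28212 were well above background on every array of at least 1 of the 2 groups. A probe not above background on every NiO array thus entered only through the control arrays. The brightest probe stood for each gene symbol, which gave 24813 features, 12947 of them without a symbol. Probes were named through RefSeq by main accession (10768 probes), another accession (276), current symbol (4994) or older symbol (3341), or by the file (187), and 21446 had no name. The groups were compared with limma 3.58.1 in R 4.3.3 (lmFit and eBayes on 8 arrays, 6 residual degrees of freedom, Benjamini-Hochberg adjusted p under 0.05). NiO and C60 were compared in the same way on their own 8 arrays. The 2 comparisons share the NiO arrays. The fit was tested on simulated data. The number of arrays limits the precision.

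The members and the 46 gene lists were chosen with earlier results of these data known. Of 874 list genes, 806 were on the array and 739 measured. Named genes followed a rule. Its first part took the 12 highest and 12 lowest differences among genes that were called without overlap of the groups, under quantile normalization, under normexp and with any single array left out. Its second part took the 12 highest and 12 lowest of those also beyond every C60 and 3-day control array. For genes of these parts, the lack of overlap with control arrays was fixed by the choice. So were their calls under quantile normalization, under normexp and with any single array left out. For genes of the second part, the separation from C60 and 3-day control arrays was fixed as well. The rule's last part took up to 6 called members of each list and its key members. Together these gave 254 genes, of which 163 are described and some are not reported here, and a few others are named as list members after their values were seen.

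Alternatives were quantile normalization, median scaling, normexp background correction (offset 50), other filters, a fit over 5 groups, the median over probes, each array left out, and the authors' ratio. Removal of control arrays in pairs, spike-in scaling, and centring in 7 bins of probe G+C and 5 of signal (smallest bin 61 features) were added after seeing the data. The 3-day NiO slide entered the fit over 5 groups alone, and the 3-day C60 slide was not analysed here.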

Additional observations from a re-analysis of the deposited data

Results flagged for a closer look

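Among the genes described, 326 groups of 4 arrays were examined for 1 array set apart from the other 3 by a gap that fills most of the group's range. In 27 of them an array stood out, where chance gives about 1 in 20 for independent groups. These genes were chosen by their values on the same arrays and share those arrays, so neither the number nor its spread over arrays is read against chance. Of the 27, 11 were on NiO array 3, 9 on control array 2, 5 on NiO array 4, and 1 each on NiO array 2 and control array 4.

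NiO array 3 stood above the other NiO arrays for genes of macrophages, acute phase and lysosomes. It read 4.58 for Arg1, 1.24 for Ccl2, 6.10 for the complement component C3 and 5.72 for Lcn2. Among lysosomal genes it read 4.24 for Atp6v1b2, 4.20 for Lgmn and 1.75 for Ctsk. It was also above the others at 2.69 for Hmox1, 4.61 for Mmp14, 4.71 for Slc26a4 and -1.83 for Itih1.

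Control array 2 stood below the other controls for Trem2 at 1.97, C4a at 1.64, Plaur at -2.82, Tgfb1 at -1.76 and Tie1 at -1.54. The same array was lowest for Myo7a at -4.39, Ftl1l1 at 5.39 and RT1-Db1 at 3.40, and highest for Ctsk at 1.61.

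NiO array 4 stood above the other NiO arrays for Fgf7 at -1.56, Or13a25 at -6.69 and Dbp at 2.92, and below them for RT1-Da at 5.59 and Sgk1 at 2.35. Control array 4 was set apart in the same direction for Dbp, at 2.39. NiO array 2 was lowest for Nrsn1, at -6.77. What sets these arrays apart was not tested.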

How the results depend on the processing

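The counts, genes and lists compared with control were recomputed under 19 other settings, and the genes also with the authors' ratio. The comparison with C60 and the promoter counts were not. The count of genes called ranged from 2596 to 7709 with 1 array left out, rose to 11327 without control arrays 3 and 4, and dropped to 2249 under spike-in scaling. Genes called higher ranged from 913 to 2787 with 1 array left out, and numbered 7084 under median scaling and 1069 under spike-in scaling. Genes called lower ranged from 1683 to 4922 with 1 array left out, and numbered 2310 under quantile normalization, 2168 under median scaling, 7135 without control arrays 3 and 4 and 1180 under spike-in scaling. Median scaling and spike-in scaling moved the median of all features to 0.22 and 0.18, from -0.12. Genes higher by at least 1 log2 unit ranged from 174 to 496 with 1 array left out. They numbered 775 under quantile normalization, 1335 under median scaling, 160 under normexp, 923 without control arrays 3 and 4, 165 without control arrays 1 and 2, 1022 under spike-in scaling and 590 after G+C and signal centring. Genes lower by that much ranged from 1009 to 2558 with 1 array left out, and numbered 826, 1246, 489, 1163 and 1093 under quantile normalization, median scaling, normexp, spike-in scaling and centring. The filter on all 8 arrays, which tests fewer genes, left 1174. The causes of the other shifts were not tested.

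Of 133 called genes described, 1 turned direction, Csf1r, at -0.63 with the median over its probes. Calls were lost for 43 under spike-in scaling, 39 without NiO array 2, 29 without NiO array 3, 27 without NiO array 1, 13 after centring, 6 under quantile normalization and 2 under normexp. The filter on all 8 arrays kept 117 of the 133. In the authors' deposited table, whose centring is unknown, the ratio of 60 of the 133 lay further from the value here than the spread between arrays, and none of the 133 turned direction. Of 92 list counts, 52 moved by over 1.5 times under median scaling, 48 without NiO array 2 and 27 after centring. No paired analysis was possible because the labels give the arrays no replicate numbers shared between groups. Signal over background limits dim genes: a gene below background on every NiO array has only a bound.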
